A study of Homo sapiens with 8 samples.

Results

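Ribosomal protein genes encode the protein subunits of the cytoplasmic ribosome. They were chosen by name, as protein-coding genes of GENCODE release 44 called RPL or RPS plus a number with an optional final A or X, together with RPLP0, RPLP1, RPLP2 and RPSA. The rule found 77 members among 19408 protein-coding genes, of which 43 belong to the large subunit, 31 to the small subunit and 3 to the stalk. FAU, whose product also carries a ribosomal protein, has another name and was counted in a list of translation genes. The members lay on 21 chromosomes, with 12 of them on chromosome 19, and spanned from 1.378 to 80.337 kb with a median of 5.077 kb.

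The large subunit joins amino acids and the small subunit reads the messenger RNA, and each protein is needed in matching amounts with the others. Their messenger RNAs are among the most abundant of growing cells, have short 3′ untranslated regions, and end where the cleavage machinery recognises AATAAA or a close variant of it. Many of these genes carry small nucleolar RNAs (snoRNAs), which guide the modification of ribosomal RNA, within their introns, and retrotransposition has left a large number of processed copies of them in the genome.

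Poly(A) 3′-sequencing, which primes on poly(A) tails and reads the transcript just before them, was performed in Kelly cells, a human neuroblastoma line, and in Kelly E9R cells, derived from them, in which the CDK12 cysteine that THZ531 attaches to is mutated. Both lines received either DMSO or 400 nM THZ531, which binds and inactivates the kinases CDK12 and CDK13, for 6 h. The dose is that of the labels, and the study's methods give a lower one for these lines. This gave 4 groups of 2 libraries (Kelly with DMSO, Kelly with THZ531, Kelly E9R with DMSO and Kelly E9R with THZ531), 8 in all, and the study asked whether inhibition makes transcripts end early. The values analysed here are 1 list of 153624 peaks, for which the reads of every library were merged, so that no value has a replicate, and neither THZ531 with DMSO nor Kelly with Kelly E9R could be compared.

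The depth per library is unknown. Each peak carries a fold enrichment over its local background and a q-value, from which the pileup (the number of reads over the summit, each extended to 100 bp) and the background per 100 bp were recovered. Reads carry no molecular identifiers, so intervals on shares are 95% Wilson intervals for counting error only. In such bulk samples, fewer cells of a type and less RNA per cell cannot be told apart. All 10 markers of adrenergic neuroblastoma had a peak at a transcript end, with pileups from 21 to 121, against 0 of 4 leukocyte markers, 1 of 3 epithelial markers (pileup 6) and 2 of 4 fibroblast markers (both 16).

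The sequences at the 3′ ends of the strongest end peaks are shown first, because they show the letters before the place where the reads of a peak stop. Each is 30 bases on the gene's strand of GRCh38, 5′ to 3′, and its last base is the 3′ end of the peak. Capitals mark letters that match a polyadenylation signal, and a match does not show that the site was used. The first group carried AATAAA, in RPL5 and RPL11, which bind the small ribosomal RNA of the large subunit and can hold back MDM2, in RPL13A, and in RPS19 and RPS26, genes mutated in Diamond-Blackfan anaemia. These windows are chr1:92841893-92841922 (+) for RPL5, chr1:23696391-23696420 (+) for RPL11, chr19:49492282-49492311 (+) for RPL13A, chr19:41871391-41871420 (+) for RPS19 and chr12:56044196-56044225 (+) for RPS26. The AATAAA began 21 to 25 bases before the 3′ end of the peak, and the peak ended between 1 base before and 4 bases after an annotated transcript end.
RPL5: gatatagatAATAAActtatgaacagcaac
RPL11: aaagagcAATAAAaagttttcagtgaaatg
RPL13A: atcagaAATAAAttgcttttaaagaaatct
RPS19: gggttAATAAAttgcctcattcgtaatcct
RPS26: agaaaAATAAAatggaaattgtacttaata

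The second group shows matches to variants of the signal. RPL18 and RPL24, both large subunit genes chosen after their values were seen, carried ATTAAA at chr19:48615329-48615358 (−) and chr3:101680971-101681000 (−). RPS16 and RPS3A of the small subunit had neither AATAAA nor ATTAAA in the 100 bases before the 3′ end, and carried AGTAAA at chr19:39433134-39433163 (−) and chr4:151104692-151104721 (+). RPL37A carried AATATA at chr2:216501596-216501625 (+), and RPL4 carried TATAAA at chr15:66499204-66499233 (−). The peaks of RPL18 and RPS16 ended 2 and 3 bp past an annotated transcript end, but those of RPS3A, RPL4, RPL24 and RPL37A ended 79, 119, 120 and 162 bp past it, so that the marked letters of these 4 lie downstream of that end. In RPS16, RPS3A, RPL37A and RPL4, AATAAA or ATTAAA also lay within the peak, upstream of the 100 bases searched.
RPL18: tctcttATTAAAaagatttttgctgacagt
RPL24: attttATTAAAaagtctattgctcaggaat
RPS16: agaaatcAGTAAAcatcctggacctattgc
RPS3A: agacAGTAAAtttgacagctggtaaacttt
RPL37A: gcagcataagAATATAagtcttccaagtta
RPL4: atagtgtggTATAAAatggggcatggattt

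The last group marks exceptions. RPL41 (chr12:56118146-56118175, +), which encodes the smallest ribosomal protein, had none of the 12 signals searched in the 100 bases before the 3′ end of the peak. That peak ended 208 bp past an annotated transcript end, so the bases shown lie downstream of that end. AATAAA or ATTAAA lay within the peak of RPL41, upstream of the 100 bases searched. RPS27A encodes ubiquitin fused to a small subunit protein. For RPS27A the 30 bases after the peak are shown (chr2:55236020-55236049, +), in which 26 bases are A, here in capitals.
RPL41: aacgccctgcggcatgtcgcacgcgtactt
RPS27A: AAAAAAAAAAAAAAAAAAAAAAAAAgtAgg

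Transcript end peaks, meaning peaks within 200 bp upstream or 600 bp downstream of the end of an annotated transcript, were found in 76 of 77 members. Among all protein-coding genes 64.4% had one. With only peaks of −log10 q of at least 5, 76 members and 62.4% of all protein-coding genes had one. The members' −log10 q at the strongest of these peaks ranged from 9.82 in RPS28 to 83.6 in RPL35A.

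RPS27A was the exception. Its end peak of 563 bp (chr2:55235457-55236019), with a pileup of 78 and a fold enrichment of 18.9, was left out by the study's rule against priming on genomic A, since the A stretch shown above followed it and none of the 12 signals lay in the 100 bases before its 3′ end. This peak ended 166 bp past the annotated transcript end, so the A stretch and the 100 bases searched lie downstream of that end. RPL35A, RPS23 and RPL34, with 86, 80 and 79 reads, were among the few members with an end peak of higher pileup. The sole peak retained for RPS27A lay on coding exon 5 of 6, with a pileup of 25.

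Apart from end peaks, members had peaks on exons and in introns. Before the rule against genomic A there were 263 peaks, of which 3 were left out, and 260 remained. Of these, 128 (49.2%) were end peaks, 85 (32.7%) exonic and 47 (18.1%) intronic. Over all protein-coding genes, whose median span was 24.3 kb, the shares were 15.7%, 16.3% and 68.1%. Genes of up to 10 kb, closer to the members in length, had 59.9% end, 24.5% exonic and 15.7% intronic peaks.

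**Figure D1:**
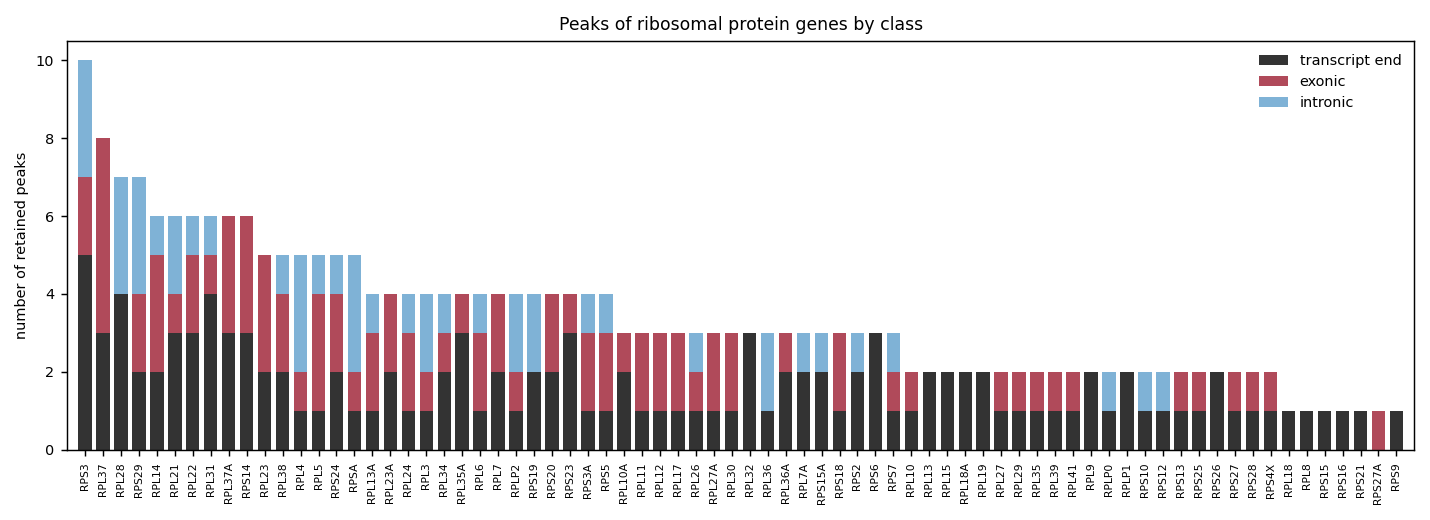
Retained peaks of 74 ribosomal protein genes (x axis), as the number of transcript end (black), exonic (red) and intronic (blue) peaks (y axis). RPS3 had the most peaks, with 5 at transcript ends, 2 exonic and 3 intronic, and RPS27A had no end peak.

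The strongest end peak of the members was high. Its median pileup was 50.5 reads, against 22 over the 12507 protein-coding genes with an end peak and 22 over those of up to 10 kb. A pileup above 42 was reached by 52 of the 76 members, against 9.76% of all genes with an end peak. All members but RPS28 lay above the median of all genes. Each transcript gives reads at its 3′ end whatever its length, so these pileups were not divided by length.

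Among the highest was RPL35A of the large subunit, with a pileup of 86 reads. RPS23, whose product sits near the decoding centre, had 80, and RPL34 had 79. High values were also found in RPL13 with 76, RPL37A and RPL7A with 74 each, RPL15 with 73, the stalk gene RPLP1 with 72 and RPS24 with 71. Neighbours in this order differed by up to 6 reads and have no replicate to be read against. A pileup is limited to 100 reads per strand, or 200 over both, where only 1 read per position is kept. The highest pileup of the whole list was 200, and 16 of the 153624 peaks were above 100. Whether duplicate reads were kept is not stated, so pileups may count positions rather than reads. The part of such a limit in these values was not tested.

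At the lower end, RPS28 had 19 reads, RPS26 had 24, RPS4X had 29 and both RPL28 and RPS9 had 30. RPS26 forms part of the channel through which messenger RNA leaves the small subunit, and RPS4X is an X-linked small subunit gene. RPS28 and RPS4X had a stronger peak elsewhere in the gene, described below with the exonic peaks, and so did RPL28 in an intron.

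**Figure D2:**
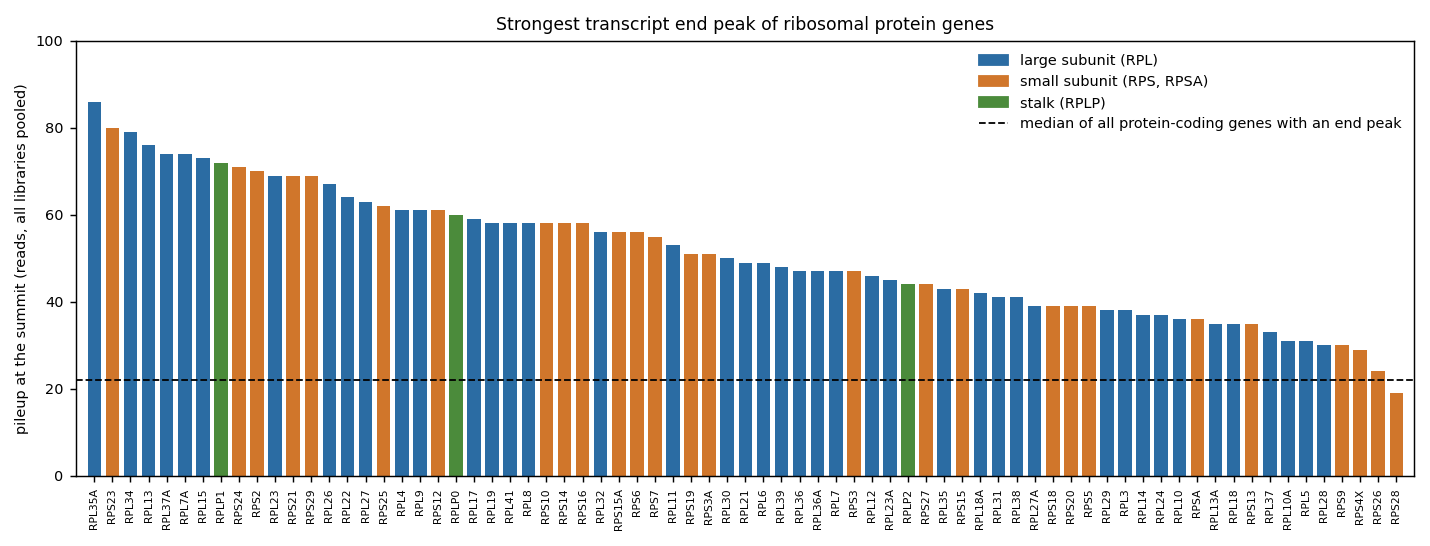
Pileup at the summit of the strongest transcript end peak in reads of the pooled libraries (y axis) for 73 ribosomal protein genes with such a peak (x axis), coloured by subunit, with the median of all protein-coding genes with an end peak (22) as a dashed line. Pileups drawn ran from 19 in RPS28 to 86 in RPL35A, and RPS28 alone lay below the line.

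By subunit, the median pileup was 48 reads in the 43 large subunit genes, 51 in the 30 small subunit genes with an end peak and 60 in the 3 stalk genes. The stalk recruits elongation factors to the ribosome. RPLP0, its base, had a pileup of 60, RPLP1 had 72 and RPLP2 had 44. Of genes known from disease or signalling, RPS6, the substrate of S6 kinase, had 56 reads, RPS14, lost in a form of myelodysplastic syndrome, had 58 and RPS19 had 51. RPL11 had 53, RPL5 had 31, RPL41 had 58, RPL13A had 35 and RPSA, also known as the laminin receptor, had 36.

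The fold enrichment was less set apart than the pileup. Its median was 13.8 (from 6.41 in RPS28 to 22.8 in RPS25), against 10.8 over all genes with an end peak, and 58 of 76 members lay above that median. The local background of the members was higher as well. It had a median of 2.80 reads per 100 bp against 0.98 over all genes, and 76 of 76 members lay above the median of all genes. This background was taken as that of a 10 kb window, which holds the peak itself and can hold other reads of the same gene. The pileup had a median of 18.4% of the reads in that window in members, and 23.1% over all genes. The part of the members' own reads in their background was not tested. Median folds were 12.1 for the large subunit, 14.8 for the small subunit and 19.6 for the stalk. RPL37, for example, had a background of 4.16 and a fold of 6.59 at 33 reads, whereas RPL18 had 1.23 and 16.1 at 35 reads.

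Other genes of protein synthesis are set beside the members. Of the 27 genes of the translation list, 25 had an end peak, with a median pileup of 45 reads and a median fold of 13.4. FAU had 38 reads, RACK1, a scaffold on the small subunit, 53, the elongation factor gene EEF1A1 51 and EEF2 53. RPL3L and RPL10L, paralogs of members with narrow tissue expression, had no peak of any class. Genes of the mitochondrial ribosome, which are encoded in the nucleus under a separate programme, had an end peak in 74 of 78 cases, with a median pileup of 29.5 and a median fold of 12.5.

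**Figure D3:**
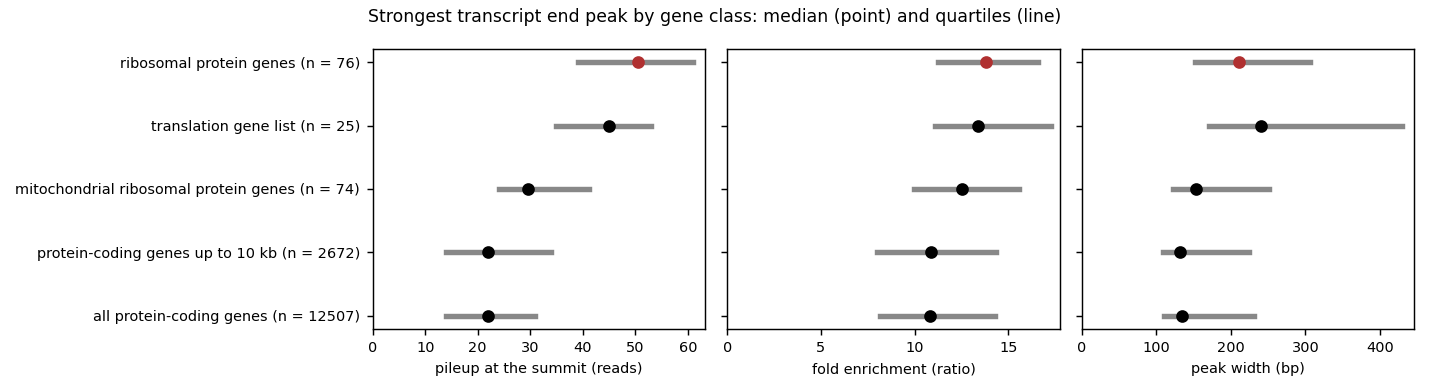
Pileup, fold enrichment and width of the strongest transcript end peak (x axes) in 5 gene classes (y axis), with the median as a point and the quartiles as a line. Ribosomal protein genes had medians of 50.5 reads, 13.8 and 211 bp, and all protein-coding genes 22 reads, 10.8 and 135 bp. The translation list had 45 reads, 13.4 and 241 bp.

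The end peaks of the members were also wide beside those of all genes. The median width was 211 bp against 135 bp over all genes. It was larger still in the translation list, with 241 bp. Genes of the mitochondrial ribosome had 153.5 bp and genes of up to 10 kb 132 bp. The upper quartile was 306.5 bp in members and 230.5 bp over all genes, and 21 of 76 members had a peak of at least 300 bp. RPL31 had the widest, with 1042 bp, and RPS28 the narrowest, with 104 bp. The 3′ end of the peak fell within 10 bp of an annotated end in 26 of 76 members (34.2%), against 59.8% over all genes. It lay more than 50 bp past the nearest annotated end in another 26 (34.2%, against 23.1%). This second share was 29.3% in genes of up to 10 kb, 28% in the translation list and 17.6% in genes of the mitochondrial ribosome. The first share, within 10 bp, was 53.4%, 48% and 56.8% in the same order.

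The peaks farthest from an annotated end included those of RPL13, which ended 398 bp past it, RPL37 (374 bp) and RPL38 (291 bp), and that of RPL31, which ended 304 bp before it. RPL13 had AATAAA 57 bases before the 3′ end of the peak, which places these letters downstream of that annotated end. A-rich sequence, meaning 6 A in a row or 7 A of 10 in the 50 bp after the peak, followed the strongest end peak of 3 of 76 members, against 14.8% over all genes. Of the 76 strongest end peaks, 18 also touched another gene, to which their reads may belong, since the peaks carry no strand.

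Several members had their strongest end peak before the end of their canonical transcript, the one that Ensembl chose to represent the gene. The strongest end peak lay in the window of the canonical end in 50 members. In the other 26 it lay at another annotated end, in each case upstream. In some of them, such as RPL10 and RPS23, the canonical end is the outermost annotated end, so another could only lie upstream. Of these 26, the 7 genes RPL10, RPL11, RPL23, RPL27A, RPL32, RPL4 and RPS6 had no peak at the canonical end. No share over all protein-coding genes is available beside the 26 or the 7.

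In RPL11 the peak, with 53 reads and the AATAAA shown above, lay 415 bp before the canonical end, and in RPS6 one of 56 reads lay 531 bp before it. In RPL10, whose product lies near the peptidyl transferase centre, a peak of 36 reads lay 1414 bp before it. RPS19 had both, with 51 reads 1505 bp before the canonical end and 36 reads at it. RPS23 had 80 reads upstream and 36 at the canonical end. RPL35A had 86 upstream and 18 in a peak that ended 7 bp before the canonical end. A further RPL35A peak of 24 reads ended 670 bp past that end and touched another gene, IQCG. In RPL14, a peak of 37 reads stood 6215 bp before the canonical end, where the pileup was 8.

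AATAAA or ATTAAA lay in the 100 bp before the 3′ end of the strongest end peak in 56 of 76 members (73.7%, 62.8 to 82.3), against 74.5% over all genes. On the opposite strand, in the mirror-image window, 13 of 76 (17.1%, 10.3 to 27.1) held either. AATAAA was found in 49 members and ATTAAA alone in 7. Of the remaining 20, 14 held another of the 12 signals searched on the gene's strand, and 6 held none. Nearest to the 3′ end was AGTAAA for RPL31, RPS3A and RPS16, AATATA for RPL23A, RPL37A and RPS20, and AATACA for RPL7A, RPL36A and RPS21. It was GATAAA for RPL7 and RPS27, TATAAA for RPL4 and RPL27A, and ACTAAA for RPL37. The other signals searched were AAGAAA, then CATAAA, besides them AATGAA and lastly AATAGA, each counted where it overlapped another. Any of the 12 was present in 92.1% of members and 88.6% of all genes with an end peak.

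Within 40 bp the share for AATAAA or ATTAAA was lower, with 39 of 76 members (51.3%), against 63.5% over all genes. It was 54.4% in genes of up to 10 kb, 48% in the translation list and 62.2% in genes of the mitochondrial ribosome. The 20 members without either in 100 bp included RPL4, RPL7, RPL7A, RPL23A, RPL27A, RPL31, RPL36A, RPL37, RPL37A, RPL38, RPL39, RPL41, RPS2, RPS3A, RPS16, RPS20, RPS21 and RPS27. Their peaks were wide, with a median of 320.5 bp against 190.5 bp in the other 56. In 17 of the 20, AATAAA or ATTAAA lay within the peak itself, which in wide peaks reaches back past the 100 bp searched. The exceptions were RPL7A, RPL23A and RPL38. A match is a description of the letters and not proof of a used site.

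Exonic peaks occurred in 52 of 77 members, against 41.6% of all protein-coding genes. There were 0.539 per kb of exon, against 0.247 over all protein-coding genes and 0.126 in those of up to 10 kb. Over genes with an end peak it was 0.536, against 0.312 and 0.185. Genes of the mitochondrial ribosome and of the translation list were closer to the members, with 0.415 and 0.400. Over those with an end peak they had 0.399 and 0.411. Of the 85 peaks, 62 touched coding sequence, 20 lay on the last exon and 0 on the first. Their median pileup was 23 reads, and the median of their share of the same gene's strongest end peak was 46.5%.

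A-rich sequence followed 35 of the 85 exonic peaks (41.2%, 31.3 to 51.8), against 52.1% over all protein-coding genes and 38.6% in those of up to 10 kb. The peaks that touched coding sequence and those that did not are given apart. A-rich sequence followed 33 of 62 (53.2%, 41.0 to 65.1) in coding sequence and 2 of 23 (8.70%) outside it. AATAAA or ATTAAA preceded 4 of 62 and 10 of 23. The same split over other protein-coding genes is not available, so these shares are not shown to be particular to the members. AAGAAA, which in frame spells a pair of lysine codons, was the signal assigned to 20 of 85, of which 18 touched coding sequence. It was assigned only where AATAAA and ATTAAA were absent and AAGAAA lay nearest to the 3′ end. Peaks assigned another signal may hold it too.

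Ribosomal proteins bind RNA and are rich in lysine, which is encoded by AAA and AAG. The median share of lysine codons was 12.2% in the members against 5.44% over all protein-coding genes, and that of AAA codons 4.12% against 2.04%. Across the 77 members, exonic peaks per kb and the share of lysine codons had a Spearman's rho of 0.36, and with AAA codons 0.41. Genes are not independent replicates, and all points come from the same pooled reads. The part of priming on A-rich coding sequence in these peaks was not tested.

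RPL37 had the most exonic peaks, 5, followed by RPL14, RPL23, RPL37A and RPL5 with 3 each, tied with others and taken in order of symbol. In 4 members an exonic peak exceeded the strongest end peak, with 6 such peaks in all. RPS28 had one of 77 reads on its last exon, at −914 bp from the annotated end, which was 405% of the 19 reads at that end. It had AATAAA 56 bases before its 3′ end. RPS4X had one of 48 reads against 29, RPL37 had 49 and 37 against 33, and RPL13A had 41 and 37 against 35. No such count over all protein-coding genes is available. The strongest exonic peak had a median of 54.1% of the strongest end peak in members, against 75% over all protein-coding genes.

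The 41-read peak of RPL13A touched coding sequence of exon 7 of 8 and stood before A-rich sequence. The 37-read peak, on exon 8, had AATAAA 25 bases before its end. RPL5 had an exonic peak on exon 7 of 8 with 31 reads, equal to its end peak, before A-rich sequence and after AAGAAA.

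Intronic peaks occurred in 32 of 77 members, against 55.6% of all protein-coding genes and 13.0% of those of up to 10 kb, so that the members lay below the one and above the other. Of the members, 15 had neither an exonic nor an intronic peak. Across members, the number of intronic peaks and the kb of intron had a Spearman's rho of 0.57 (n = 77, all from the same pooled reads). Per kb of intron there were 0.108, against 0.0727 over all protein-coding genes. Over genes with an end peak the values were closer, with 0.109 in the members, 0.0952 in all and 0.0905 in those of up to 10 kb. A-rich sequence followed 28 of 47 (59.6%, 45.3 to 72.4), against 76.9% over all protein-coding genes and 53.6% in those of up to 10 kb, and AATAAA or ATTAAA preceded 8.

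RPL28, RPL4, RPS29, RPS3 and RPSA had 3 intronic peaks each. The highest was in RPS29, with 60 reads (chr14:49586558-49586902), and next was one of 58 reads in RPL28 (chr19:55401084-55401373), which also lay in the span of UBE2S. Both were outside the span of the canonical transcript, as were 15 of the 47 intronic peaks, and 10 of the 47 touched another gene.

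SnoRNA genes were the other feature that intronic peaks met. The introns and exons of 28 members host 60 snoRNA genes. Of the 47 intronic peaks, 13 (27.7%, 16.9 to 41.8) overlapped one, against 0.0986% of the intronic peaks of all protein-coding genes, with or without a snoRNA. This count fell to 7 with only peaks of −log10 q of at least 10, and to 2 of 33 intronic peaks with all transcripts, since more of each gene then counts as exon or end. Set against snoRNA genes in place of peaks, 26 of 60 in members (43.3%, 31.6 to 55.9) were overlapped by a peak of any class, against 29.8% of the 282 within other protein-coding genes, and 32% of the 241 within those with an end peak. The 13 intronic peaks had a median pileup of 28 reads, against 15 in the 34 others. A-rich sequence followed 4 of the 13 and 24 of the 34.

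The 3′ ends of some peaks on snoRNA genes lay just past the snoRNA. Of the 26, 8 ended within 10 bp of the 3′ end of the snoRNA gene, 6 of them intronic. Within 50 bp there were 11, and most ended farther on. In RPL21 the peak on SNORA27 ended 2 bp past it and that on SNORD102 9 bp past it. In RPSA the peaks on SNORA6 and SNORA62 ended 5 bp past them, and in RPS3A that on SNORD73A 7 bp. These peaks had 19 to 29 reads. Other peaks ended farther on, such as that on SNORD21 in RPL5 with 20 reads, which touched an exon and ended 176 bp past the snoRNA.

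**Figure D4:**
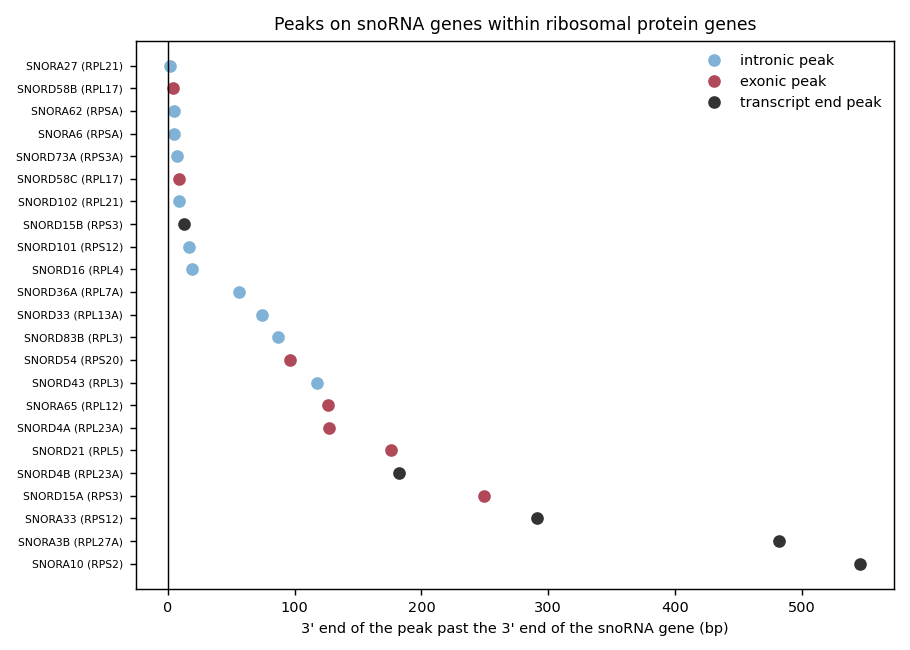
Distance from the 3′ end of the snoRNA gene to the 3′ end of the peak in bp (x axis) for 23 snoRNA genes within ribosomal protein genes that a peak overlapped (y axis, host gene in brackets), coloured by peak class. Of these, 7 lay within 10 bp, from 2 bp for SNORA27 to 9 bp for SNORD102 and SNORD58C.

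Processed copies share nearly all of their sequence with the members, and the authors kept reads with more than 1 match in the genome up to a limit, so that peaks on a copy and on its gene may hold the same reads. By name there were 1571 such pseudogenes, with at least 1 for each of the 77 members and a median of 13. A retained peak lay on 304 of them, from 68 members. Of these, 298 lay off coding exons, with a median pileup of 13 reads, a median background of 0.315 per 100 bp and a median fold of 9.73.

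Some copies stood out in fold enrichment. Of the 298, 27 had a higher fold than any member's strongest end peak. The peak on RPL13P12 had 76 reads, as did RPL13 itself, over a background of 0.81 where RPL13 had 6.30, and its fold of 42.5 was the highest of all 153624 peaks. RPS28P7 had 74 reads, close to the 77 of the exonic peak of RPS28.

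In 10 copies of 8 members the pileup was above that of every peak of the member. RPS27AP5 had 51 reads and RPS27AP16 had 36, where the retained peak of RPS27A had 25 and the one left out had 78. RPS18P5 had 58 against 39, RPL3P4 51 against 38, RPL13AP5 48 against 41 and RPS26P8 38 against 24. RPL10P9, RPL6P27, RPSAP54 and RPS26P47 exceeded their members by 1 to 6 reads. Values of the 68 members with a peak on a copy, these 8 among them, are uncertain to the extent that reads were placed on their copies. Across members, the number of copies and the pileup of the strongest end peak had a Spearman's rho of 0.02 (n = 76).

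**Figure D5:**
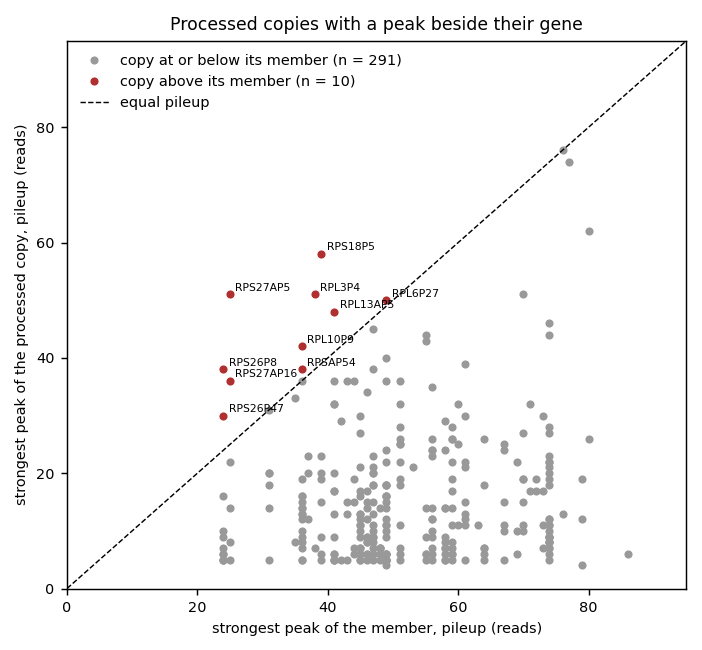
Pileup of the strongest peak on each of 301 processed copies (y axis, reads) against that of the strongest peak of any class in its ribosomal protein gene (x axis, reads), with equal pileups as a dashed line. The 10 named copies lie above the line, and the others on or below it.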

How the data were processed

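Poly(A) 3′-sequencing (QuantSeq 3′ REV) was performed in 8 libraries, which the labels place in 4 groups of 2. According to the submitters' processing notes, STAR 2.5.1b, SAMtools, deepTools 2.5.4 and MACS2 2.1.1 were used with GRCh38. Per the study's methods, reads of all samples were merged and extended to 100 bp before peak calling. The genome size, the duplicate handling and the q threshold are not given in the sources used here. The authors deposited a fold enrichment (a ratio of pileup to local background), the −log10 of the p-value and of the q-value, and a score derived from the q-value for each peak, with 0 columns of values per library.

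From these deposited values the pileup was recovered as the whole number that satisfies MACS2's formulas for fold and Poisson p-value, which succeeded for 100% of peaks (tolerance 0.001 in −log10 p). The recovery, the peak classes and the sequence windows were tested on simulated data. Peaks were classed with basic transcripts of GENCODE release 44, readthrough transcripts left out, as transcript end, else exonic, else intronic, and took the strand of the gene. Following the study, peaks followed within 50 bp by 25 A with at most 3 mismatches and preceded by none of 12 signals in 100 bp were left out. A-rich sequence means 6 A in a row or 7 A of 10 in the 50 bp after a peak. Copies are pseudogenes named after a member.

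The members, lists and rules were chosen with earlier results of these data known. Genes named by rule are the 10 members with the highest pileup, the 5 with the lowest and those without an end peak. They also include those without AATAAA or ATTAAA, the 5 with the most exonic and intronic peaks, and the 5 farthest from an annotated end. A fixed set of well known members was named too. Other members, among them RPL10, RPL18, RPL21, RPL24 and RPS25, lie outside this rule and were named for their values. A test of THZ531 against DMSO was planned for values per library, and none could be run on a pooled list. Alternatives were recomputed for q, annotation, windows and overlapping genes. Python 3.11.15, numpy 2.4.6, pandas 2.3.3, scipy 1.17.1 and pysam 0.24.0 were used. Values of a few genes are not reported here by name, nor drawn in the plots by gene, and counts over the members include them.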

Additional observations from a re-analysis of the deposited data

Results flagged for a closer look

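Outside the retained peaks were 3 peaks of ribosomal protein genes, left out because an A stretch in the genome followed them and none of the 12 signals preceded them. The RPS27A end peak had a pileup of 78 reads. The RPS20 intronic peak had 24 reads and the RPS24 intronic peak had 5. They are listed because the counts and medians over retained peaks do not include them, and the part of priming on genomic A in them was not tested.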

How the results depend on the processing

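No paired analysis was possible because the list holds 1 value per peak for all libraries pooled, and for the same reason leaving out a replicate could not be run. Of 103 recomputed values for 11 results under 13 settings, 0 reversed and 89 moved by less than 1.5 times or stayed within the main interval. The 14 others were these. With only peaks of −log10 q of at least 10, exonic peaks fell to 49, intronic peaks to 17, members with one to 13, and intronic peaks on snoRNA genes to 7. With all transcripts in place of basic ones, intronic peaks remained in 19 members and on a snoRNA gene in 2 cases, since more sequence then counts as exon or end. With the 3′ end of the gene span as the sole end there were 74 end peaks and 137 exonic peaks, a median pileup of 41 and 29.9% of exonic peaks before A-rich sequence. With the canonical transcript only, an alternative chosen after seeing the data, there were 78 end peaks with a median pileup of 43. The share of members with a signal was 51.3% for AATAAA or ATTAAA within 40 bp and 92.1% for any of the 12. Members with an end peak numbered 65 with the gene span's end only, 69 with the canonical transcript and 59 without peaks that touch another gene. The depth per library is unknown, and the pooled list limits every value to the mixture of treated and untreated cells of both lines.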
